A study of Mus musculus with 13 samples.

Results

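The 9 genes described here, of cytokine reception and its feedback, were followed across mouse thymocyte stages: the receptor chains Il7r, Il2rb, Il2rg, Il4ra, Il6ra and Ifngr1 and the feedback inhibitors Socs1, Socs3 and Cish. They were chosen by symbol, and all 9 were found once in the gene lists of both experiments, out of 57010 genes. Thymic lobes were dissociated, and the cells were fixed and labelled by split-pool barcoding, in which cells pass through rounds of wells and carry the well barcodes into the library, with a Parse WT kit and, in a second experiment, a Parse Mini kit. Each kit held 4 thymic samples, numbered 1 to 4 in the WT kit and named T-1-A, T-1-B, T-2-A and T-2-B in the Mini kit. All 8 samples were lobes from female C57BL/6N mice aged 2 months, with 2 mice and 2 lobes a mouse in each kit. The sources used here do not say which sample came from which mouse, so lobes of 1 mouse count as separate samples. The p-values below rest on how differences between classes vary from lobe to lobe, not between animals. The WT kit also carried 16 other samples, which the labels describe only together as thymus and spleen, control and chronic stress, from young and adult mice. The study's own text calls them non-thymic. Their sample names could not be matched to a tissue or treatment, so their levels are given as ranges and medians with no test.

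The receptors for interleukin 7, interleukin 2, interleukin 15 and interleukin 4 share the common gamma chain encoded by Il2rg, and each adds a chain of its own, such as Il7r for interleukin 7 and Il2rb for interleukins 2 and 15. Bound receptors activate Janus kinases and STAT factors, and STAT factors in turn induce Cish and the Socs genes, whose proteins dampen the same signal. In the thymus, interleukin 7 is known as a survival and growth factor of double-negative (DN) cells, and double-positive (DP) cells are known to lose its receptor and to regain it after positive selection.

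STAT dimers bind a spaced palindrome, written here as TTCNNNGAA, which reads the same on both strands. In the RefSeq windows (assembly GRCm38.p6, 250 bases before and 50 after each gene start), 8 of the 9 genes were matched, and Il2rb was not. The motif stood in 3 of these 8 windows, those of Il7r, Socs3 and Cish, against 2726 of 32851 windows of all genes (8.30%). The motifs of these 3 windows are shown since the losses of Cish and Il7r are described below, and the capitals mark the motif.

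Cish, chr9:107296659-107296678, plus strand: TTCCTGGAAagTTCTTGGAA

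Il7r, chr15:9530000-9530028, minus strand: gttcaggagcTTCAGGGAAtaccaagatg

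Socs3, chr11:117969502-117969530, minus strand: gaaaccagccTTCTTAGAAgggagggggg

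The Cish window held the motif 2 times, the first at the first transcribed base of the RefSeq model. Of all windows, 150 (0.457%) held 2 or more. The motif of Il7r began 142 bases and that of Socs3 154 bases before the RefSeq start. By the gene spans of the annotation given with each gene below, whose starts differ, all 3 lie inside the gene models. The windows of Il2rg, Il4ra, Il6ra, Ifngr1 and Socs1 held no match to these letters. A match describes the sequence only, and no binding was measured here. In the annotation, Cish overlaps the models Gm17040 and Gm17041 on the other strand, Il6ra Gm42809 and Il4ra Gm44876, and no source used here says whether counting used strand.

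After quality limits 39369 of 41838 thymic cells of the WT kit and 19273 of 20085 of the Mini kit were kept, with medians of 2912 to 3900 and 2306 to 3078.5 unique molecular identifiers (UMIs) per cell and sample. Ribosomal RNA took 18.2% to 27.3% and 14.8% to 17.5% of the UMIs of all deposited thymic cells. Levels are given as CPM, counts-per-million of the UMIs outside the ribosomal RNA genes. Barcodes were unique to a cell with the sublibrary included, while 44889 of 128624 cells of the WT kit and 2720 of 20085 of the Mini kit shared their combination of 3 wells with a cell of another sublibrary. Cells were clustered without the 9 genes and without the wider pathway list described below, and clusters were named by markers. The 6 thymocyte classes held 1008 and 446 DN-like cells (WT and Mini kit), 4651 and 2985 proliferating DP-P-like, 11641 and 9137 recombining DP-R-like, 2305 and 535 DP-S-like cells under selection, 2767 and 1206 SP-CD4-like and 952 and 544 SP-CD8-like cells, SP being single-positive. For the DN, DP-P, DP-R and DP-S names, 7 to 9 of the 8 or 9 listed markers were highest in their own class. The clusters were named with these same lists, so this is no independent check of the names. Of 8 SP-CD4 markers only Zbtb7b and Cd40lg were highest in the SP-CD4-like cells, which stand on these. Of 7 SP-CD8 markers 5 were highest in the SP-CD8-like cells of the WT and 4 in those of the Mini kit. A further 12400 and 3112 thymic cells stayed unnamed. DN-like cells held medians of 6919 to 9240 UMIs in the WT samples and DP-R-like cells 2011 to 2918, so that a share of the UMIs and a number of UMIs per cell are different measures here.

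Il7r was lost and regained between DN-like and SP cells in both kits. This gene, the interleukin 7 receptor alpha chain, fell from 102 ± 27.4 CPM in DN-like cells to 9.69 ± 3.96 in DP-R-like cells and rose to 353 ± 48.6 in SP-CD4-like cells of the WT kit (mean ± SD, 4 samples). Il2rb, the beta chain of the interleukin 2 and 15 receptors, and Il6ra, the interleukin 6 receptor, were also lower in DP-R-like than in DN-like cells and higher in SP-CD4-like than in DN-like cells of the WT kit, at lower levels. These 2 falls lost their calls with 30% of the cells left out as doublets, and the fall of Il2rb was not called in the Mini kit (adjusted p = 0.22, edgeR). Il2rg and Il4ra were lowest in DP-P-like cells and highest in DP-S-like and SP cells, while Ifngr1, the ligand-binding chain of the interferon gamma receptor, was highest in DN-like and lowest in SP-CD4-like cells. Of the 9 genes Cish had the largest loss, from 17.6 ± 4.52 CPM to 0.378 ± 0.280, whereas Socs1 stayed between 30.9 and 60.1 CPM in all 6 classes. In the Mini kit the Il2rb mean was higher in DP-S-like than in DN-like cells, and other differences between the kits are given with each gene.

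**Figure D1:**
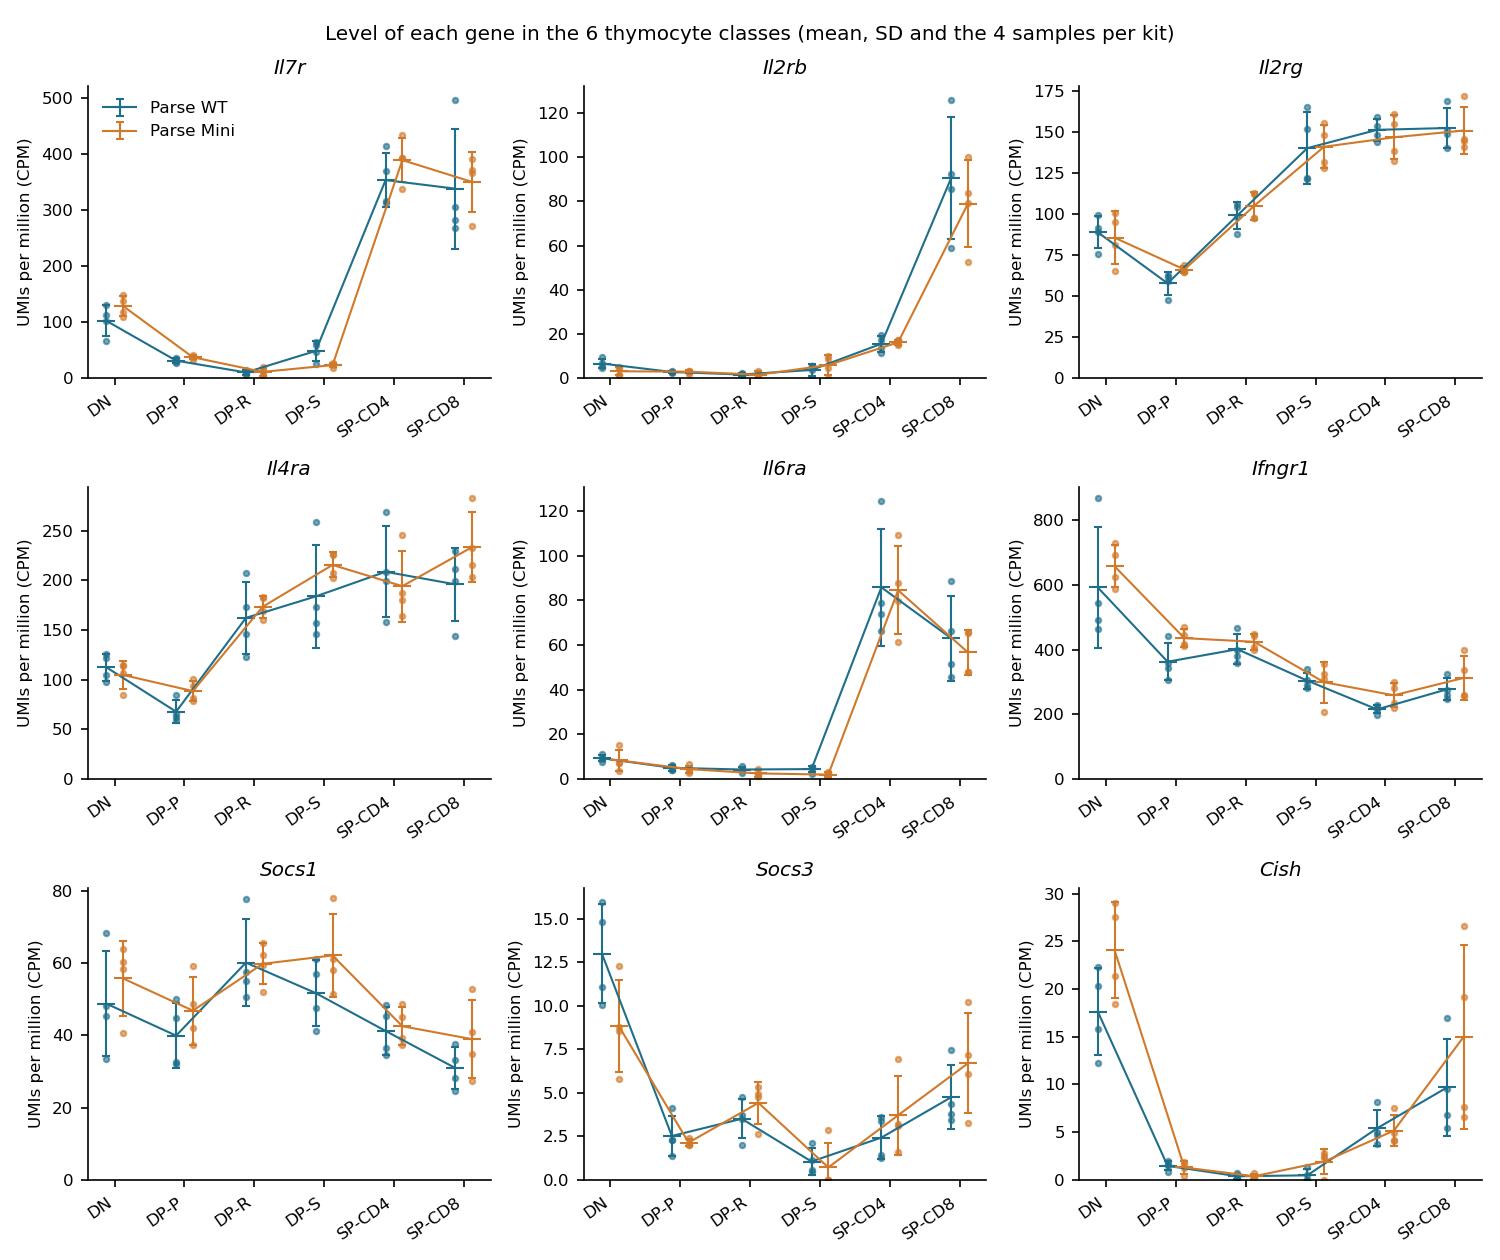
Levels of the 9 genes in 6 thymocyte classes, in CPM (vertical axes, one per gene, on their own scales). Points are the 4 samples of each kit, and lines and bars are their mean and SD. Il7r, Il6ra and, in the WT kit, Il2rb dip through the DP classes, all 3 are higher in SP cells, Cish is near 0 in DP-R-like cells, and Ifngr1 is highest in DN-like and lowest in SP-CD4-like cells.

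The 6 comparisons between classes were fitted with edgeR over all genes, with the sample as a block, and a gene counts as called at a Benjamini-Hochberg adjusted p under 0.05. All 9 genes passed the filter on low counts in the WT kit and 8 in the Mini kit, where Socs3 was too low to be tested. From DN-like to DP-P-like cells 0 of 9 genes were called higher and 9 lower in the WT kit, beside 20.4% higher and 21.5% lower among all 11117 genes tested. In the Mini kit the counts were 0 and 4 of 8, beside 18.7% and 18.1% of 9149 genes. From DN-like to DP-R-like cells 3 were higher and 6 lower in the WT kit (26.6% and 30.1% of all genes), and 2 and 4 in the Mini kit (23.2% and 28.8%). At both steps the share called lower was larger among the members tested than among all genes. From DN to DP-R the share called higher was also larger, 33.3% against 26.6% in the WT and 25% against 23.2% in the Mini kit. The members were chosen with earlier results of these data known, so these shares are no test of the set.

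From DP-R-like to DP-S-like cells 3 genes were called higher and 2 lower in the WT kit, beside 14.4% and 13.4% of all genes, and 3 and 1 in the Mini kit, beside 12.4% and 11.6%. From DP-S-like to SP-CD4-like cells 4 were higher and 1 lower in the WT kit (12.3% and 9.9% of all genes), and 2 and 1 in the Mini kit (10.1% and 8.49%). Between the lineages, SP-CD8-like against SP-CD4-like, 2 were higher and 0 lower in the WT kit (4.22% and 3.84%), and 1 and 0 in the Mini kit (2.63% and 2.34%). For SP-CD4-like against DN-like cells, the level after the return against that before the loss, 5 were higher and 3 lower in the WT kit (20.8% and 22.5%), and 5 and 2 in the Mini kit (18% and 20.3%). The median log2 fold change of the genes tested was -0.82 from DN to DP-P, -0.98 from DN to DP-R and 0.80 from DN to SP-CD4 in the WT kit, and -0.44, -0.82 and 0.88 over the 8 genes tested in the Mini kit. In the WT kit the median over all genes lay between -0.01 and 0.00. The 6 comparisons share classes, so they are not independent of each other.

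**Figure D2:**
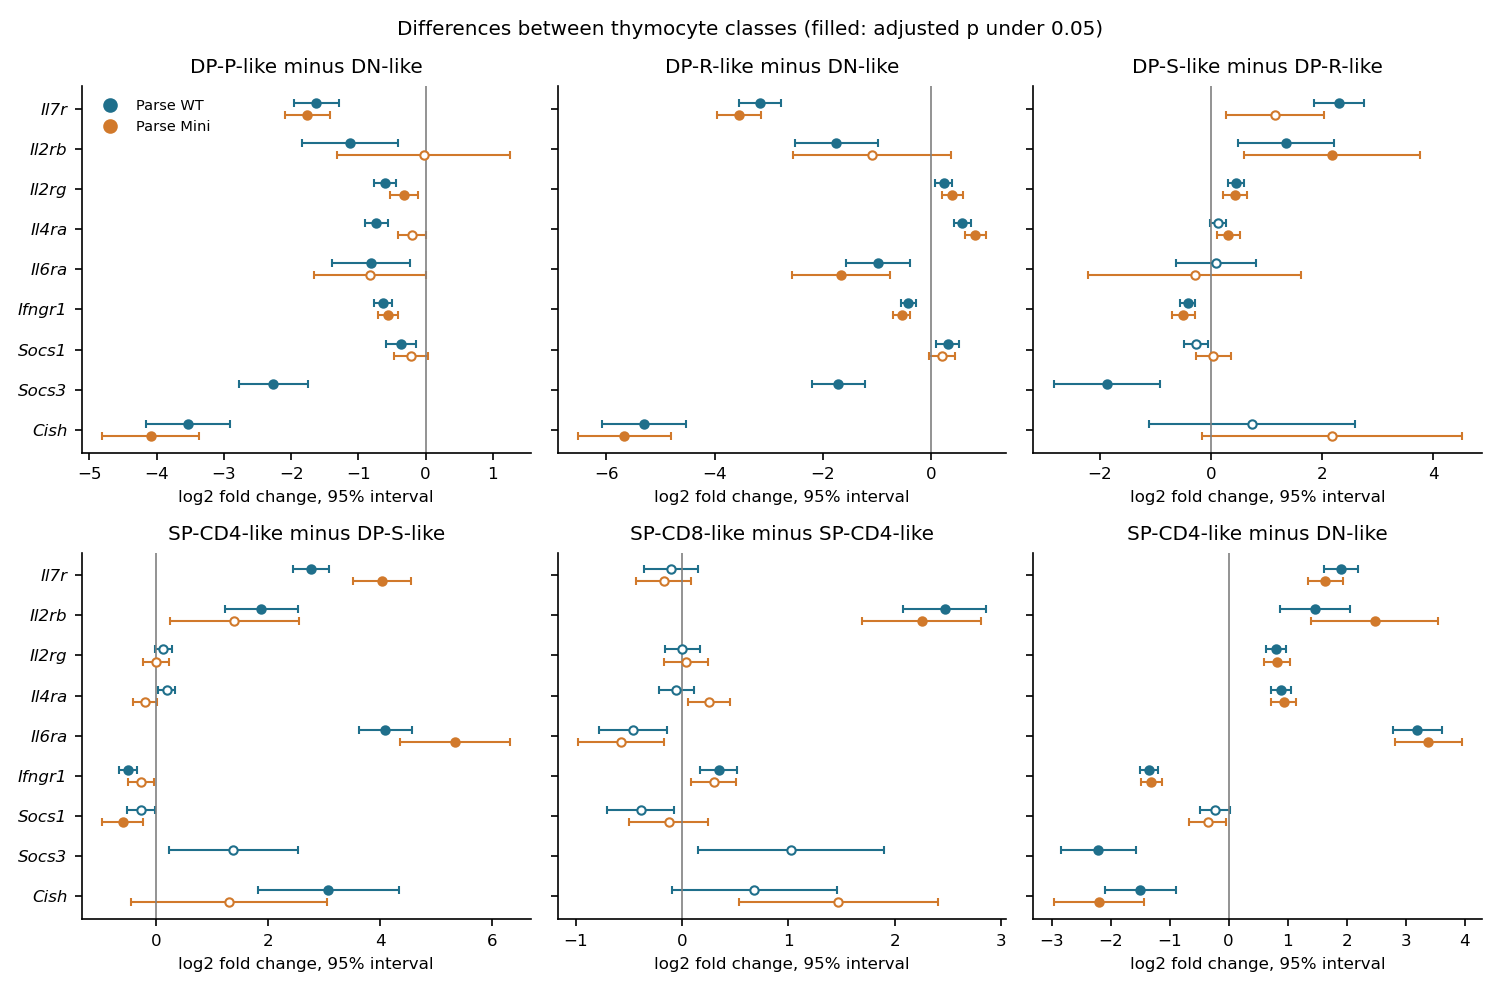
Log2 fold changes of the 9 genes in the 6 comparisons (one panel each), for the WT and the Mini kit. Bars are approximate 95% intervals made from the edgeR test statistic. Filled points have an adjusted p under 0.05. Cish and Il7r lie farthest to the lower side in DP-R-like against DN-like cells, and Il6ra farthest to the higher side in SP-CD4-like against DP-S-like cells.

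Il7r lies on chromosome 15 (9505788-9530176, minus strand, GRCm38). In the WT kit it stood at 129.8, 112, 101 and 65.0 CPM in DN-like cells of samples 1 to 4, and at 35.7, 33.5, 28.1 and 25.8 CPM in DP-P-like cells. It was 5.06, 14.5, 10.8 and 8.43 CPM in DP-R-like cells, so that every sample was lower in DP-P and lower again in DP-R, with no overlap between the groups. The log2 fold change from DN to DP-P was -1.63 ± 0.17 (± SE throughout, adjusted p = 8.7e-10, edgeR) and from DN to DP-R -3.16 ± 0.20 (8.95-fold lower, adjusted p = 1.4e-15, edgeR). The Mini kit gave 109, 117, 149 and 138 CPM in DN-like cells of T-1-A, T-1-B, T-2-A and T-2-B and 14.3, 4.29, 18.8 and 5.25 CPM in DP-R-like cells, a log2 fold change of -3.54 ± 0.21 (adjusted p = 3.6e-19, edgeR). The DP-R level amounted to 0.0241 UMIs per cell in the WT kit, against 0.609 in DN-like cells. For comparison, thymic B-like cells held 62.9 ± 20.2 CPM in the WT and 26.6 ± 22.6 in the Mini kit, and B-like cells of the 16 other samples a median of 7.02 CPM.

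Il7r was back at 24.6, 57.8, 64.5 and 45.6 CPM in the DP-S-like cells of WT samples 1 to 4, higher than in DP-R-like cells in 4 of 4 samples (2.31 ± 0.23, adjusted p = 3.6e-10, edgeR), though still within or under the range of B-like cells (39.8 to 88.0 CPM). In the Mini kit the DP-S-like cells held 24.0, 22.7, 17.1 and 27.1 CPM, T-2-A lay under its DP-R level, and the difference missed the threshold (1.15 ± 0.45, 95% interval 0.27 to 2.04, adjusted p = 0.058, edgeR). Without T-2-A the adjusted p was 0.008. The DP-S class is not the same in both kits, since in the WT kit it held a second cluster led by Chl1, Ccr4 and Tox, for which the Mini kit had no match. The large step came next. SP-CD4-like cells held 415, 316, 370.1 and 313 CPM in the WT kit and 337, 393, 393 and 433 in the Mini kit, 6.77- and 16.3-fold above DP-S-like cells (adjusted p = 1.3e-15 and 9.2e-17, edgeR). The level after the return was also above that of DN-like cells, by 1.90 ± 0.15 and 1.64 ± 0.15 on the log2 scale (adjusted p = 3.7e-13 and 9.9e-13, edgeR), in 4 of 4 samples of each kit. The SP-CD8-like cells held 497, 282, 306 and 268 CPM in the WT kit and 272, 367, 390.1 and 371 in the Mini kit. No difference from SP-CD4-like cells was detected, with 95% intervals of -0.36 to 0.15 and -0.43 to 0.09 on the log2 scale (adjusted p = 0.75 and 0.62, edgeR).

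The clusters between DP-R and mature SP cells give the levels of Il7r in smaller groups. Their order was set from their leading genes, and no developmental order was computed. They are described by their leading genes, and since they were defined on the same cells no test is given. In the WT kit the level was 16.5 ± 7.44 CPM in the unnamed cluster led by Tox and Arap2 and 20.4 ± 12.5 in the DP-S-like cluster led by Hivep3 and Hecw2. It was 66.2 ± 21.3 CPM in the DP-S-like cluster led by Chl1, Ccr4 and Tox and 359.9 ± 35.1 in the unnamed cluster led by Chl1, Bcl2 and Chn2. Up to the Chl1 and Ccr4 cluster the means thus stayed under that of DN-like cells, though in sample 4 the last of these, at 70.1 CPM, was above its DN level of 65.0, and the next cluster in this order was at the SP level. The SP-CD4-like clusters held 264 ± 29.3 (led by Bach2 and Inpp4b) and 441 ± 52.4 CPM (led by S1pr1 and Ms4a4b, genes of mature SP cells). The matching clusters of the Mini kit ran 23.7 ± 12.6, 22.7 ± 4.18, 299.6 ± 78.8, 337 ± 36.1 and 481 ± 59.1 CPM. On the side of the loss, the DP-P-like cluster led by Gfra1 and Ccdc18 held 64.1 ± 29.5 CPM in the WT and 61.1 ± 25.2 in the Mini kit, against 30.8 and 36.8 in the whole DP-P class. Among 8 DP-R-like clusters of the WT kit Il7r ran from 4.34 to 18.3 CPM, and among 9 of the Mini kit from 0 to 35.8, which reaches above the DP-S level of 22.7 there. The highest Il7r levels of the thymus lay in the cluster led by Zbtb16 and Il18r1, genes of innate-like T cells, at 764 ± 198 CPM in the WT and 837 ± 241 in the Mini kit.

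**Figure D3:**
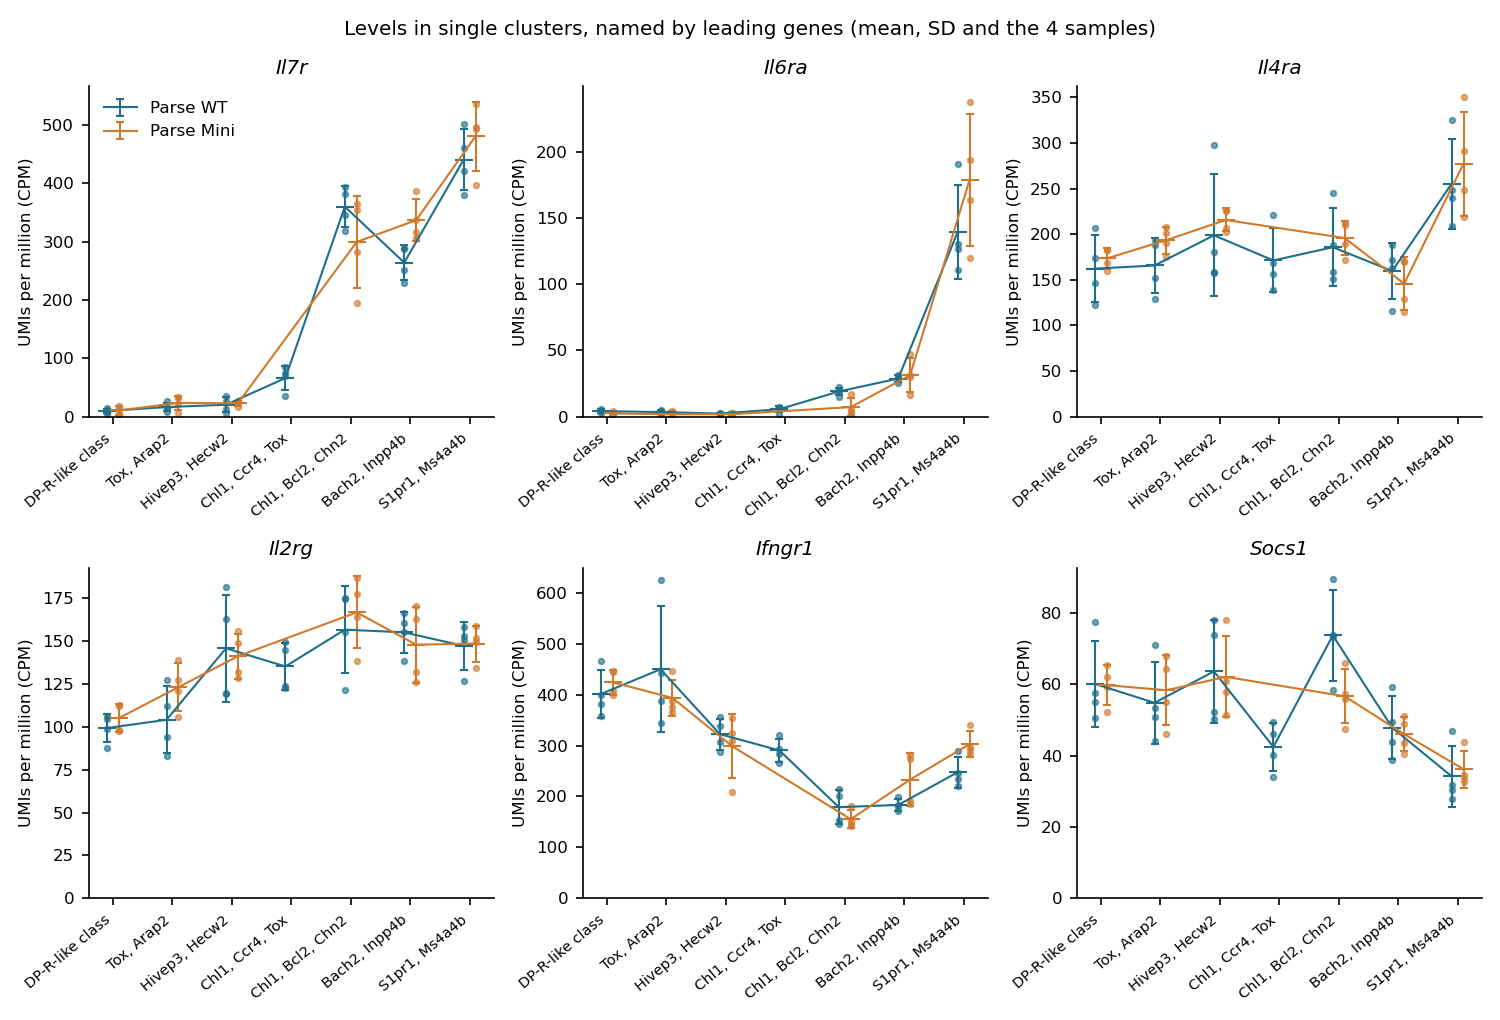
Levels of Il7r, Il6ra, Il4ra, Il2rg, Ifngr1 and Socs1 in DP-R-like cells and in clusters named by leading genes, in CPM. The order on the horizontal axis was set from these genes and not computed. Points are the samples of each kit, and bars their mean and SD. In the WT kit Il7r reaches the SP level in the cluster led by Chl1, Bcl2 and Chn2. In the Mini kit its mean there is below that of SP-CD4-like cells. Il6ra is highest in the cluster led by S1pr1 and Ms4a4b.

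Il6ra encodes the chain that binds interleukin 6 (chromosome 3, 89864059-89913196, minus strand). In the WT kit it stood at 11.1, 7.61, 9.43 and 8.85 CPM in DN-like cells and at 2.64, 5.64, 3.97 and 4.49 in DP-R-like cells. All these levels are low beside 49.1 ± 21.6 CPM in B-like cells of the same thymic samples. The log2 fold change from DN to DP-R was -0.98 ± 0.30 (adjusted p = 0.006, edgeR) in the WT and -1.66 ± 0.46 (adjusted p = 0.0023, edgeR) in the Mini kit, and the adjusted p was 0.055 without WT sample 4 and 0.16 without T-2-B. With 30% of the cells left out as doublets in place of 5%, the WT fall was no longer called (-0.73, adjusted p = 0.25, edgeR) and the Mini value turned to 0.57 (adjusted p = 0.78). The fall to DP-P (-0.82 ± 0.29 and -0.83 ± 0.42) was called in the WT kit only (adjusted p = 0.025 and 0.12, edgeR), and not there without sample 3 (adjusted p = 0.07, edgeR) or 4 (0.25). Without T-1-A the Mini value was 0.05. DP-S-like cells held 2.24, 5.41, 4.91 and 4.96 CPM in the WT kit, and in the Mini kit 3 UMIs in all, so that no return was detectable there. Against DP-R-like cells the log2 interval was -0.64 to 0.81 in the WT kit, and the ratio of the Mini kit was 0.802 (95% counting interval 0.160 to 2.48).

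SP-CD4-like cells held 125, 66.3, 73.7 and 78.6 CPM of Il6ra in the WT kit and 61.4, 79.6, 87.7 and 109 in the Mini kit, above every DP-S sample. The rise from DP-S was 4.09 ± 0.24 on the log2 scale in the WT kit (17.0-fold, adjusted p = 2.2e-15, edgeR). In the Mini kit 356 UMIs stood against 3, a ratio of 43.6 with a 95% counting interval of 14.8 to 212 (adjusted p = 9.2e-12, edgeR). Against DN-like cells the SP-CD4 level was 9.16- and 10.4-fold higher (adjusted p = 9.2e-15 and 1.6e-13, edgeR). In the cluster led by Chl1, Bcl2 and Chn2, where Il7r was well above its DP-S level in both kits, Il6ra was far below its highest cluster mean. The WT levels were 19.0 ± 2.93 CPM in the cluster led by Chl1, Bcl2 and Chn2, 28.8 ± 2.36 in that led by Bach2 and Inpp4b and 139 ± 35.4 in that led by S1pr1 and Ms4a4b, and the Mini levels 7.23 ± 6.76, 31.3 ± 12.8 and 179 ± 49.6. SP-CD8-like cells held 88.4, 45.7, 66.1 and 51.6 CPM in the WT kit and 47.8, 47.9, 65.3 and 65.6 in the Mini kit, lower than SP-CD4-like cells in 4 of 4 samples of both kits, but the difference was not called (-0.46 ± 0.16 and -0.57 ± 0.21, adjusted p = 0.08 and 0.12, edgeR). Antigen-presenting-like (APC-like) cells of the thymus held more than any thymocyte class, 162 ± 41.8 CPM in the WT and 192 ± 43.7 in the Mini kit.

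Il2rb (chromosome 15, 78479256-78495271, minus strand) was higher in SP-CD8-like than in SP-CD4-like cells. It stood at 126, 58.8, 92.4 and 85.6 CPM in SP-CD8-like cells of WT samples 1 to 4 and at 13.7, 11.3, 17.1 and 19.6 in SP-CD4-like cells, with no overlap. The Mini kit gave 52.7, 79.1, 100.2 and 84.0 CPM in SP-CD8-like and 14.9, 15.5, 17.1 and 17.0 in SP-CD4-like cells. SP-CD8-like cells were 5.53-fold higher in the WT kit (2.47 ± 0.20, adjusted p = 2.2e-11, edgeR) and 4.76-fold in the Mini kit (2.25 ± 0.28, adjusted p = 1.2e-07, edgeR). It is the only one of the 9 genes called between the lineages in both kits.

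In the earlier classes Il2rb was low. DN-like cells held 9.27, 4.68, 6.53 and 5.49 CPM in the WT kit and DP-R-like cells 0.660, 2.02, 1.59 and 1.78 CPM, a log2 fold change of -1.75 ± 0.39 (adjusted p = 0.00025, edgeR). For DP-P against DN it was -1.13 ± 0.36 (adjusted p = 0.012, edgeR) and missed the threshold without sample 3 (0.092) or 4 (0.07). With 30% of the cells left out as doublets neither was called (adjusted p = 0.055 and 0.30, edgeR). In the Mini kit, where the DN-like cells gave 9 UMIs in all, DN-like, DP-P-like, DP-R-like and DP-S-like cells held means of 2.98, 2.81, 1.42 and 5.79 CPM, so that the DP-S level lay above the DN level, and neither fall was called (-0.03 ± 0.66 and -1.10 ± 0.74, adjusted p = 0.98 and 0.22, edgeR), though without T-1-A the fall to DP-R had an adjusted p of 0.031. The rise from DP-R to DP-S was called in both kits (1.35 ± 0.44 and 2.18 ± 0.80, adjusted p = 0.018 and 0.042, edgeR) on 27 and 9 UMIs, with sample 1 and T-1-A at 0 in DP-S-like cells. Leaving out WT sample 2, 3 or 4 gave adjusted p values of 0.084, 0.062 and 0.18, and leaving out T-1-B, T-2-A or T-2-B 0.36, 0.15 and 0.13. SP-CD4-like cells were above DN-like cells (1.46 ± 0.31 and 2.47 ± 0.55, adjusted p = 0.00016 and 0.00026, edgeR), but their 15.4 ± 3.67 CPM lay within the spread of thymic B-like cells, 20.1 ± 11.7 CPM, and above the median of B-like cells of the 16 other samples, 4.34 CPM. Against DP-S-like cells the rise was called in the WT kit (1.87 ± 0.33, adjusted p = 4.3e-05, edgeR) and not in the Mini kit (1.39 ± 0.59, adjusted p = 0.1, edgeR).

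Outside the 6 classes, 2 clusters of thymic T cells held more Il2rb than SP-CD4-like cells. The cluster led by Zbtb16 and Il18r1 stood at 278 ± 99.1 CPM in the WT and 289 ± 40.6 in the Mini kit. Its means were above those of SP-CD8-like cells, 90.7 ± 27.7 and 79.0 ± 19.7 CPM, so that high Il2rb was not limited to the CD8 side. The cluster led by Tnfrsf9 and Ikzf2, markers of regulatory or strongly stimulated T cells, stayed unnamed and held 95.2 ± 15.7 and 63.8 ± 34.1 CPM.

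Il2rg, the common gamma chain (chromosome X, 101264378-101268255, minus strand), did not follow Il7r into the loss. DN-like cells held 89.0, 99.5, 91.4 and 76.0 CPM in the WT kit, DP-P-like cells 59.0, 61.4, 62.9 and 47.6 and DP-R-like cells 104, 98.6, 106 and 87.8. The proliferating cells were lower (-0.61 ± 0.08, adjusted p = 2.7e-07, edgeR), in 4 of 4 samples. The Mini kit gave -0.33 ± 0.11 (adjusted p = 0.013, edgeR), which was not called without T-1-A (0.15) or T-2-B (0.1). DP-R-like cells were slightly above DN-like cells in CPM (0.23 ± 0.08 and 0.39 ± 0.10, adjusted p = 0.014 and 0.0011, edgeR), but not without WT sample 3 (0.081) or 4 (0.1), and per cell the order was the other way, with 0.237 UMIs in DP-R-like and 0.588 in DN-like cells of the WT kit. From DP-R to DP-S the level rose to 165, 122, 152 and 122 CPM in the WT kit and 132, 149, 128 and 156 in the Mini kit, above every DP-R sample of the same kit (0.45 ± 0.07 and 0.44 ± 0.11, adjusted p = 9.3e-06 and 0.0021, edgeR). No further change to SP-CD4 was called, with SP-CD4-like cells at 152 ± 6.55 and 147 ± 13.5 CPM and log2 intervals against DP-S of -0.03 to 0.28 and -0.24 to 0.23. Against DN-like cells they were higher, by 0.80 ± 0.08 and 0.82 ± 0.11 on the log2 scale (adjusted p = 6.9e-10 and 3.1e-08, edgeR), but per cell they held fewer UMIs, 0.470 and 0.507 against 0.588 and 0.574. Between SP-CD8-like and SP-CD4-like cells the 95% intervals of the difference were -0.16 to 0.17 and -0.17 to 0.24 on the log2 scale. Il2rg overlaps Gm20489, a protein-coding model on the same strand, so that some of its UMIs could have been given to that gene.

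Il4ra, the ligand-binding chain for interleukin 4 (chromosome 7, 125552120-125579474, plus strand), had much the same course. In the WT kit DN-like cells held 126, 97.7, 122 and 104 CPM, DP-P-like cells 84.3, 59.5, 64.9 and 62.0 and DP-R-like cells 207, 122, 174 and 146. Proliferating cells were lowest in every WT sample (-0.73 ± 0.09 against DN, adjusted p = 1e-08, edgeR), whereas the fall in the Mini kit was not called (-0.21 ± 0.11, adjusted p = 0.12, edgeR). DP-R-like cells were above DN-like cells in 4 of 4 samples of both kits (0.57 ± 0.08 and 0.82 ± 0.10, adjusted p = 1.8e-07 and 1.5e-09, edgeR). Per cell they held fewer UMIs, 0.381 against 0.739 in the WT kit. DP-S-like cells held 259, 146, 173 and 157 CPM in the WT kit and 207, 227, 202 and 226 in the Mini kit. The step from DP-R was called in the Mini kit only (0.13 ± 0.07 and 0.31 ± 0.10, adjusted p = 0.19 and 0.019, edgeR), and not without T-1-A (0.061), T-1-B (0.099) or T-2-B (0.059). Against DP-S-like cells no change was called (0.19 ± 0.08 and -0.20 ± 0.11, adjusted p = 0.089 and 0.24, edgeR), though without WT sample 1 the adjusted p was 0.023. SP-CD4-like cells, with 209 ± 45.9 and 194 ± 35.8 CPM, were above DN-like cells in both kits (0.89 ± 0.08 and 0.93 ± 0.11, adjusted p = 7.2e-11 and 1.4e-09, edgeR), again in CPM and not per cell (0.629 UMIs in the WT kit). Within the SP-CD4 class the cluster led by S1pr1 and Ms4a4b held 255 ± 49.3 CPM and that led by Bach2 and Inpp4b 159.6 ± 31.1 in the WT kit, and 277 ± 57.1 and 146 ± 28.7 in the Mini kit. WT sample 1 was the highest of the 4 in all 6 classes. The difference between SP-CD8-like and SP-CD4-like cells was not called (adjusted p = 0.81 and 0.16, edgeR), with 95% intervals of -0.22 to 0.11 in the WT and 0.06 to 0.45 in the Mini kit before adjustment.

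Ifngr1 (chromosome 10, 19591949-19610229, plus strand) was highest before the DP stage and did not return to that level. DN-like cells held 870.0, 463, 544 and 493 CPM in the WT kit and 624, 587, 692 and 730.1 in the Mini kit. DP-P-like cells held 443, 342, 358 and 307 CPM in the WT and 409.8, 417, 445 and 471 in the Mini kit. DP-R-like cells held 467, 382, 399 and 358 CPM in the WT and 399, 408, 447 and 444 in the Mini kit. SP-CD4-like cells held 213, 221, 228 and 198 CPM in the WT and 219, 236, 298 and 281 in the Mini kit. DP-R-like cells were thus above DP-P-like cells in 4 of 4 WT samples and in 1 of 4 Mini samples, a step that was not among the tests. Every SP-CD4 sample lay under every DP-R sample of its kit, and sample 1 was the highest WT sample in DN-like cells. The level fell from DN to DP-P (-0.64 ± 0.07 and -0.56 ± 0.08, adjusted p = 2.5e-09 and 9.1e-08, edgeR) and again from DP-R to DP-S (-0.42 ± 0.07 and -0.50 ± 0.10, adjusted p = 2e-05 and 0.0002, edgeR), each in 4 of 4 samples of both kits. The further fall to SP-CD4 was called in the WT kit (-0.51 ± 0.08, adjusted p = 7.5e-06, edgeR). For the Mini kit it was -0.27 ± 0.12 (adjusted p = 0.11, edgeR), with an adjusted p of 0.0037 without T-2-A, whose DP-S level of 208 CPM was the lowest. In all, SP-CD4-like cells held 2.55- and 2.48-fold less than DN-like cells (adjusted p = 2.2e-16 and 3.3e-16, edgeR). Their means, 215 ± 12.6 and 259 ± 37.4 CPM, lay within the spread of thymic B-like cells, 218 ± 51.5 and 266 ± 45.7 CPM. B-like cells of the 16 other samples had a median of 43.6 CPM. SP-CD8-like cells were above SP-CD4-like cells in 4 of 4 WT samples (0.35 ± 0.09, adjusted p = 0.0091, edgeR), a call lost without sample 3 (0.056) or 4 (0.074). The Mini kit gave 0.30 ± 0.11 (adjusted p = 0.11, edgeR), and 0.035 without T-2-B. Along the clusters the lowest WT mean was in that led by Chl1, Bcl2 and Chn2, 179 ± 33.7 CPM. There Il7r reached its SP level in the WT kit, and the Mini kit had 155 ± 17.4 CPM of Ifngr1. The clusters led by S1pr1 and Ms4a4b were higher again at 247 ± 30.4 and 303 ± 25.9 CPM.

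Of the inhibitors, Socs1, which binds Janus kinases (chromosome 16, 10782240-10785536, minus strand), was present at every stage. In the WT kit DN-like cells held 33.4, 48.0, 68.2 and 45.5 CPM, DP-R-like cells 57.4, 54.9, 77.5 and 50.5 and SP-CD4-like cells 34.5, 36.5, 48.3 and 45.4. In the Mini kit these were 58.3, 63.8, 40.5 and 60.2 CPM, 65.4, 62.1, 52.1 and 59.4 CPM and 48.6, 39.3, 44.9 and 37.2 CPM. DN-like samples overlapped the other 2 classes in both kits, while every DP-R sample lay above every SP-CD4 sample. Against DN-like cells the WT kit called DP-P lower (-0.37 ± 0.11, adjusted p = 0.0084, edgeR) and DP-R higher in CPM (0.31 ± 0.11, adjusted p = 0.015, edgeR), with 0.143 UMIs per DP-R-like and 0.340 per DN-like cell. The first was not called without sample 2 (0.1), 3 (0.075) or 4 (0.087), nor the second without sample 3 (0.05), and the Mini kit called neither (-0.21 ± 0.13 and 0.20 ± 0.13, adjusted p = 0.2 and 0.19, edgeR). From DP-S to SP-CD4 the log2 fold changes were -0.28 ± 0.13 and -0.60 ± 0.19 (adjusted p = 0.13 and 0.015, edgeR). From DP-R to DP-S they were -0.27 ± 0.11 and 0.05 ± 0.16 (adjusted p = 0.063 and 0.88, edgeR), with 0.017 without WT sample 1. For the step to SP-CD4, the Mini call was lost without T-1-A (0.079), T-1-B (0.061) or T-2-B (0.12), and the WT kit gave 0.03 without sample 4. Against DN-like cells, SP-CD4-like cells were not called in either kit (-0.24 ± 0.13 and -0.36 ± 0.16, adjusted p = 0.14 and 0.068, edgeR), but were without T-2-A (0.022).

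Cish, which encodes another SH2-containing inhibitor and is a known STAT5 target (chromosome 9, 107296026-107302784, plus strand), had its higher levels in DN-like and SP cells among these 6 classes. DN-like cells held 22.3, 15.8, 20.3 and 12.2 CPM in the WT kit and 21.3, 29.0, 18.4 and 27.6 in the Mini kit. DP-P-like cells held 1.95, 1.61, 1.48 and 0.831 CPM in the WT and 1.85, 0.415, 1.22 and 1.70 in the Mini kit, and DP-R-like cells 10 UMIs in 11641 cells and 8 UMIs in 9137 cells. The log2 fold changes to DP-P were -3.53 ± 0.32 and -4.09 ± 0.37 (adjusted p = 3.7e-11 and 8.7e-13, edgeR) and the fall to DP-R 39.7- and 50.8-fold (adjusted p = 1.3e-13 and 3.8e-15, edgeR). These were the largest fitted falls among the genes tested, 9 in the WT and 8 in the Mini kit. DP-P-like cells, whose UMI counts per cell were close to those of DN-like cells, held 0.00817 UMIs per cell against 0.106. DP-S-like cells gave 4 UMIs in the WT and 3 in the Mini kit, so a return at that step could not be seen at this depth.

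In SP-CD4-like cells Cish stood at 5.04, 3.78, 4.67 and 8.13 CPM in the WT and 4.95, 4.14, 7.49 and 4.04 in the Mini kit. The rise from DP-S was called in the WT kit (3.07 ± 0.64, adjusted p = 0.00037, edgeR), while the Mini kit had 21 against 3 UMIs, a ratio of 2.57 (95% counting interval 0.768 to 13.5). Thymic B-like cells of the WT kit held 5.01 ± 2.6 CPM, a spread that overlaps the SP-CD4 levels, and B-like cells of the 16 other samples a median of 1.91 CPM, under all of them. It did not get back to the DN level (-1.50 ± 0.31 and -2.20 ± 0.39, adjusted p = 0.00014 and 8.5e-06, edgeR), in which it differs from Il7r, higher in SP-CD4-like than in DN-like cells. SP-CD8-like cells held 16.9, 5.44, 6.84 and 9.51 CPM in the WT and 6.59, 19.2, 7.59 and 26.6 in the Mini kit, above SP-CD4-like cells in 4 of 4 samples of both kits but not called (0.68 ± 0.40 and 1.47 ± 0.48, adjusted p = 0.38 and 0.064, edgeR). Without T-2-A the Mini value was 0.04. Levels above SP-CD4 lay in the cluster led by Tnfrsf9 and Ikzf2, 32.6 ± 11.3 CPM in the WT and 11.4 ± 8.87 in the Mini kit, and in that led by Zbtb16 and Il18r1, 24.4 ± 19.5 and 32.8 ± 12.0 CPM.

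Socs3, the inhibitor known for interleukin 6 signals (chromosome 11, 117966079-117970047, minus strand), was low throughout. DN-like cells of the WT kit held 14.8, 11.1, 15.9 and 10.1 CPM, DP-P-like cells 2.27, 1.36, 4.15 and 2.31 and DP-R-like cells 3.52, 2.02, 4.77 and 3.74. The log2 fold changes from DN were -2.26 ± 0.26 and -1.72 ± 0.25 (adjusted p = 7.7e-09 and 3.6e-07, edgeR), with no overlap between samples. The Mini kit had 8.53, 5.80, 12.3 and 8.78 CPM in DN-like cells and a mean of 2.14 ± 0.194 in DP-P-like cells, without a test. DP-S-like cells gave 6 UMIs in the WT kit, lower than DP-R-like cells (-1.87 ± 0.49, adjusted p = 0.0032, and 0.062 without sample 4, edgeR), and 1 UMI in the Mini kit. From DP-S to SP-CD4 Socs3 was higher in 4 of 4 samples of both kits, but the WT difference was not called (1.37 ± 0.59, adjusted p = 0.097, edgeR), and SP-CD4-like cells at 2.43 ± 1.25 CPM stayed under DN-like cells (-2.21 ± 0.33, adjusted p = 7.4e-07, edgeR).

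Around the 9 genes, a list of 58 other genes of the pathway (27 receptors, 4 Janus kinases, 7 STATs, 5 other Socs genes, 8 other attenuators and 7 cytokines) was counted in the same fits. Of these, 45 passed the filter in the WT and 39 in the Mini kit, and none of the cytokines did. From DN to DP-P 5 were called higher and 20 lower in the WT kit (20.4% and 21.5% of all genes), and 8 and 13 in the Mini kit (18.7% and 18.1%). These are 11.1% and 44.4% of the list members tested in the WT and 20.5% and 33.3% in the Mini kit. The median log2 fold change of the list was -0.18 and -0.10, beside 0.00 and 0.01 over all genes. Stat4, which serves interleukin 12, fell by 1.73 and 1.55 on the log2 scale, and the interleukin 10 receptor chain Il10ra by 1.19 and 1.66. Socs5 fell by 1.09 and 1.2. Il1r1, the interleukin 1 receptor, went from 24.8 CPM in DN-like to 1.69 CPM in DP-P-like cells of the WT kit and from 16.9 to 0.554 in the Mini kit.

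From DN to DP-R 11 of the list were higher and 17 lower in the WT kit, which is 24.4% and 37.8% beside 26.6% and 30.1% of all genes. The Mini kit gave 8 and 12, which is 20.5% and 30.8% beside 23.2% and 28.8%, with medians of 0.03 and 0.01 in the kits. Il1r1 fell by 6.17 and 4.22 on the log2 scale and Socs5 by 1.2 and 1.01. Il12rb2, a chain of the interleukin 12 receptor, fell by 2.76 and 3.00, and Jak3, the kinase that binds the common gamma chain, by 1.45 and 1.25. Il2rg, its receptor partner, was not lower there. From DP-R to DP-S 16 were higher and 4 lower in the WT kit (35.6% and 8.89%, beside 14.4% and 13.4% of all genes) and 16 and 3 in the Mini kit (41.0% and 7.69%, beside 12.4% and 11.6%), with medians of 0.20 and 0.18. Il12rb2 (1.18 and 1.34), the phosphatase gene Ptpn6 (0.98 and 1.34) and Tgfbr2, the type II receptor for transforming growth factor beta (0.73 and 0.88), rose, while Il15ra fell (-0.71 and -1.73).

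From DP-S to SP-CD4 the list had 13 higher and 4 lower in the WT kit (28.9% and 8.89%, beside 12.3% and 9.9% of all genes). The Mini kit had 8 and 9 (20.5% and 23.1%, beside 10.1% and 8.49%), and the medians were 0.10 and 0.08. Jak3 (1.67 and 1.88) and Ifngr2, the partner chain of Ifngr1 (1.11 and 1.84), rose in both kits, and Il12rb1 fell (-1.10 and -0.90). The 2 chains of the interferon gamma receptor thus moved apart in the WT kit, Ifngr1 down and Ifngr2 up. Against DN-like cells, SP-CD4-like cells had 20 of the list higher and 10 lower in the WT kit (44.4% and 22.2%, beside 20.8% and 22.5% of all genes) and 19 and 7 in the Mini kit (48.7% and 17.9%, beside 18% and 20.3%), with medians of 0.17 and 0.28 beside -0.01 and -0.01 over all genes. All 4 Janus kinases were higher in the WT and 3 of 4 in the Mini kit. Ifngr2 rose by 1.85 and 1.76 and Tgfbr2 by 1.56 and 1.55, Il12rb2 fell by 1.90 and 2.06, and Il1r1 was down to 0.559 CPM in the WT kit and 0 in the Mini kit. Between the lineages 4 and 4 were called in the WT kit (8.89% each, beside 4.22% and 3.84%) and 3 and 2 in the Mini kit (7.69% and 5.13%, beside 2.63% and 2.34%), among them Il10ra, lower in SP-CD8-like cells (-0.95 and -1.34), and Stat4 (0.89 and 0.79), Il27ra (0.71 and 1.01) and Il21r (0.56 and 0.50), higher.

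As a description, Pearson correlations of log2(CPM + 1) were taken over the 24 class and sample values of the WT kit, which share classes, libraries and depth. Il6ra was most alike to Slfn1 (0.99), S1pr1 (0.98) and Ccr7 (0.98), with 0.92, 0.89 and 0.89 in the Mini kit, of which S1pr1 and Ccr7 mark mature SP cells. Il7r was closest to Hipk2, Nlrc5 and Atp1b3 (0.97, 0.97 and 0.96 in the WT and 0.91, 0.96 and 0.92 in the Mini kit). Il2rb was closest to Adgrg5, Ctsw and Itgae (0.97, 0.97 and 0.95, and 0.86, 0.88 and 0.71), the last of which marks CD8 cells. For Il2rg these were Tnik, Cytip and Prkcq (0.96 each), for Il4ra Mideas, Dennd1c and Fgd3 (0.95, 0.95 and 0.94), and for Ifngr1 Tm6sf1, Setd7 and Slc4a7 (0.94, 0.93 and 0.92). Cish was closest to Gm12216, Snx9 and Adgrg3 (0.97, 0.96 and 0.95). Socs1 and Socs3 had weaker matches, Csnk1e (0.82), Dusp5 (0.82) and Gm12592 (0.79) for Socs1 and Rhoq (0.84), Rgcc (0.83) and Gm19696 (0.83) for Socs3, which came to 0.54, 0.78 and 0.31 and to 0.55, 0.74 and 0.27 in the Mini kit. Among the 9 genes, Il2rg and Il4ra ran together (0.90 in the WT and 0.92 in the Mini kit), as did Il7r and Il6ra (0.90 in both), whereas the most opposite pairs were Il2rb with Socs1 (-0.66 and -0.70) and, in the Mini kit, Il2rg with Ifngr1 (-0.52 and -0.71).

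The 16 other samples of the WT kit gave the levels in mature lymphocytes. Their 81396 cells kept fell into classes named by markers, among them 6275 CD4 T-like, 4289 CD8 T-like, 1867 regulatory T-like (Treg-like), 1105 natural killer-like (NK-like) and 35301 B-like cells, with 16944 left unnamed. A class was used in a sample with at least 20 cells. Sample medians ran from 1525 to 7291 UMIs per cell.

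Il7r was highest in T-like cells there. Its median was 706 CPM in CD4 T-like cells (range 428 to 1339, 16 samples) and 793 CPM in CD8 T-like cells (range 366 to 1505, 15 samples), and neither of these was the higher throughout, with CD4 T-like cells above in 8 of 15 samples. Treg-like cells were below CD4 T-like cells in 16 of 16 samples, with a median of 562 CPM, and NK-like cells below them in 13 of 13, with 204. The median was 7.02 CPM in B-like cells (range 3.56 to 44.7, 16 samples, with 20.5 as the highest value without the sample described below as standing apart), below CD4 T-like cells in 16 of 16 samples. Plasmacytoid dendritic-like cells (pDC-like) held 247 CPM. The samples with the deepest cells, with medians of 7291 and 5775 UMIs, had the highest Il7r in both T-like classes, up to 1339 CPM in CD4 T-like and 1505 in CD8 T-like cells, while a sample with a median of 1948 UMIs held 1293 CPM in CD4 T-like cells. The part of depth in this was not tested.

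Il2rb put NK-like cells first. Its median was 866 CPM in NK-like cells (range 680.0 to 1447, 13 samples), above CD4 T-like, CD8 T-like, Treg-like and B-like cells in 13 of 13 samples each. CD8 T-like cells held 315 CPM and were above CD4 T-like cells (137) in 15 of 15 samples, the order of the SP thymocytes. Treg-like cells held 291 CPM, above CD4 T-like cells in 15 of 16 samples, and B-like cells 4.34. The values of CD4 T-like and CD8 T-like cells fell into separate ranges by the first letters of the sample names, which are given with the other observations. The T-like classes were not uniform. The CD4 T-like cluster led by Lef1, a gene of naive cells, held a median of 16.7 CPM of Il2rb and 289 of Il4ra over 10 samples, and the cluster led by Ptpn13, Tox2 and Maf 159 and 80.4 CPM over 16 samples. The CD8 T-like cluster led by Cd8b1 and Lef1 held 181 CPM of Il2rb and 318 of Il6ra over 11 samples, against 365 and 82.4 in the cluster led by Ccl5, a gene of effector and memory cells, over 15 samples. Different samples fill these clusters, so a class median mixes them in different shares.

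Il2rg was present in all lymphocytes, with medians of 123 CPM in CD4 T-like, 125 in CD8 T-like, 129 in Treg-like, 118 in NK-like and 101 in B-like cells, whose ranges overlapped. Within samples B-like cells were below CD4 T-like cells in 14 of 16, below CD8 T-like cells in 14 of 15 and below Treg-like cells in 14 of 16. Il4ra was also present in B-like cells, with a median of 133 CPM (range 72.9 to 172). It was higher in Treg-like cells at 237 CPM, above B-like cells in 16 of 16 samples, and lower in NK-like cells at 83.4. Il6ra was highest in monocyte-like cells at 819 CPM and second in neutrophil-like cells at 534. Among lymphocytes it was highest in CD4 T-like cells at 453 CPM, above CD8 T-like cells (262) in 15 of 15 samples and above NK-like (40.1) and B-like cells (41.3) in all samples that held them. Ifngr1 had medians of 410.3 CPM in monocyte-like, 295 in NK-like, 216 in Treg-like and 196 in CD8 T-like cells. CD8 T-like cells were above CD4 T-like cells (109 CPM) in 15 of 15 samples, again the order of the SP thymocytes of the WT kit, and B-like cells held 43.6.

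Of the inhibitors, Cish and Socs1 had their highest medians in Treg-like cells. The Cish median was 64.2 CPM in Treg-like cells (range 0 to 114, 16 samples), above CD8 T-like cells in 15 of 15 and above CD4 T-like cells (30.4 CPM) in 13 of 16 samples. CD8 T-like cells held 10.3 CPM, B-like cells 1.91, and in NK-like cells no UMI was counted in 7 of 13 samples. Socs1 medians were 27.6 CPM in Treg-like, 22.6 in CD4 T-like, 15.2 in CD8 T-like and 4.47 in B-like cells, under the thymocyte means of the WT kit. B-like cells of the thymic WT samples were also above the B-like median here, with a mean of 23.9 CPM. Within samples, Socs1 in Treg-like cells was above CD4 T-like cells in only 10 of 16, and it was 0 in 2. Socs3 was highest in neutrophil-like cells at 50.2 CPM, with 40.3 in CD4 T-like, 24.5 in CD8 T-like and 3.27 in B-like cells. Within neutrophil-like cells the cluster led by Csf3r and Cxcr2 held a median of 137 CPM of Socs3 and 840.0 of Il6ra.

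**Figure D4:**
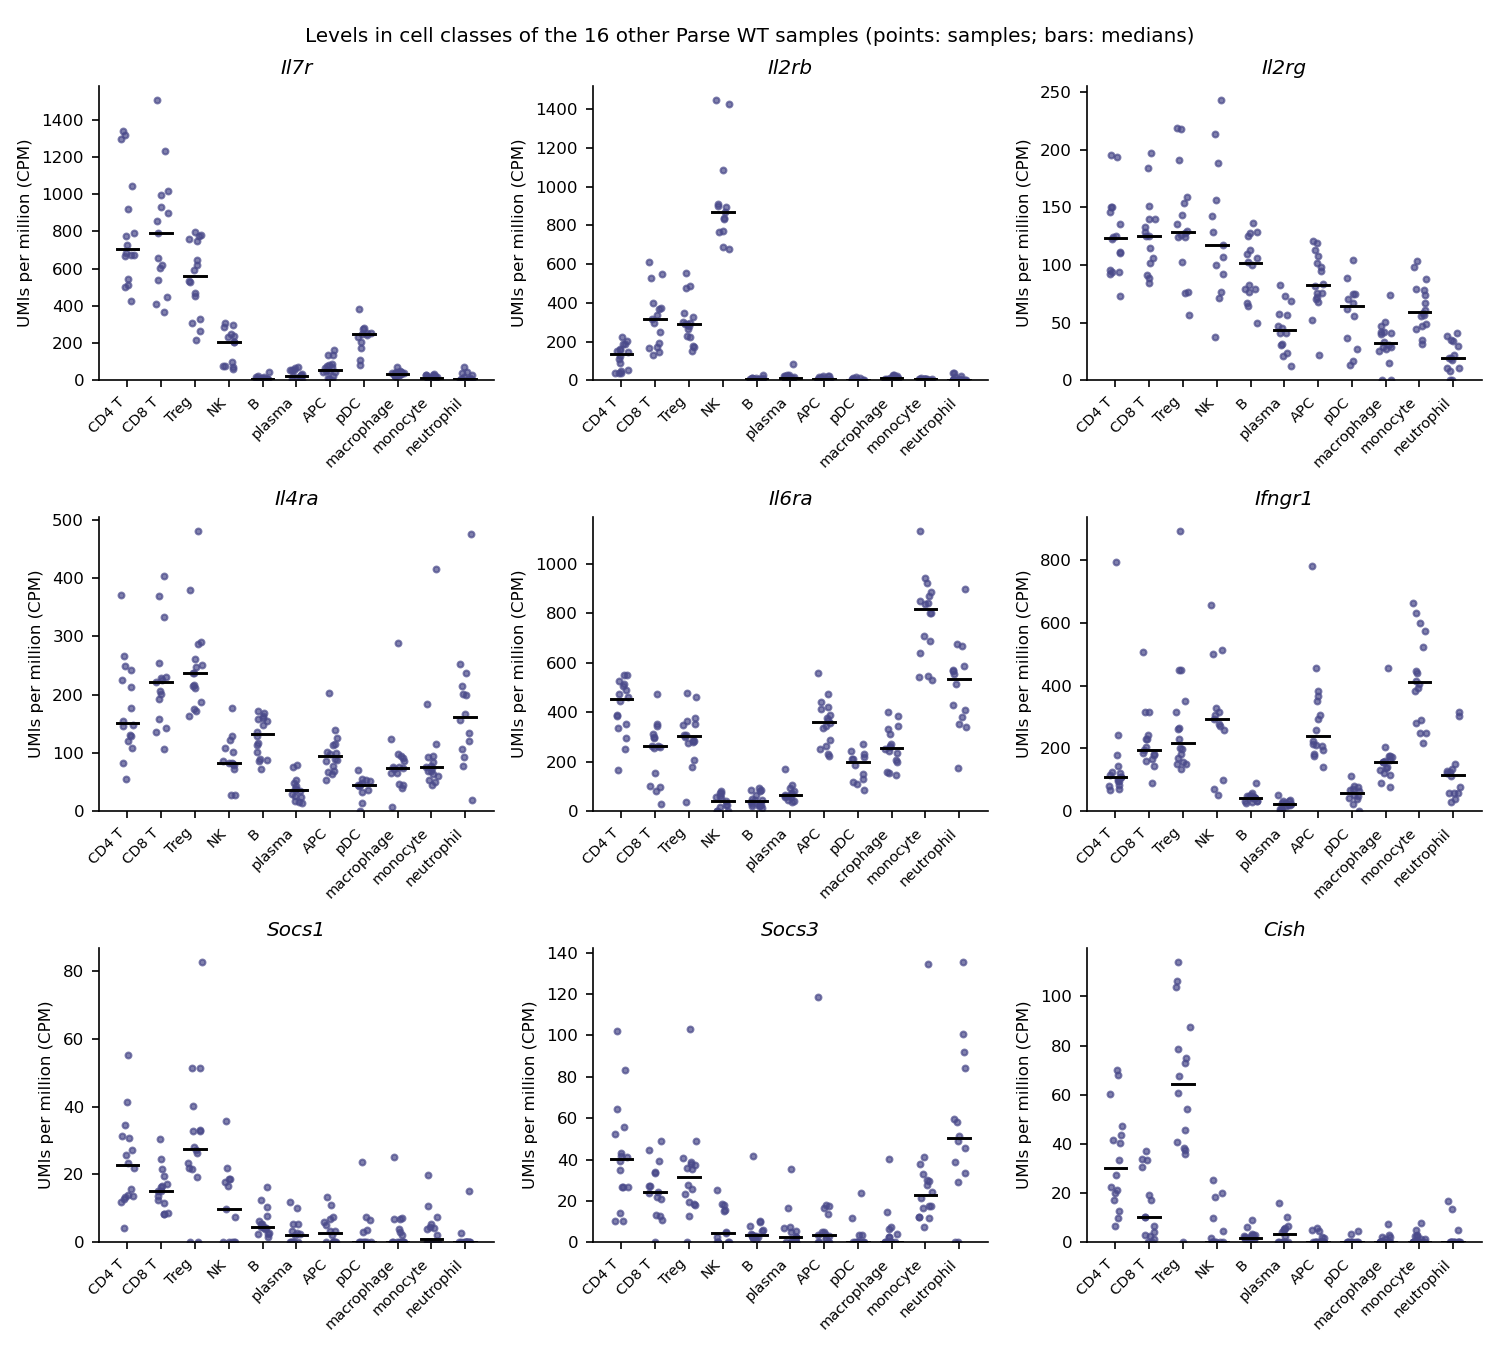
Levels of the 9 genes in 11 cell classes of the 16 other samples of the WT kit, in CPM (vertical axes), where each point is a sample with at least 20 cells of the class, and bars are medians. Il7r is highest in CD4 T-like and CD8 T-like cells, Il2rb in NK-like cells, Il6ra in monocyte-like cells and Cish in Treg-like cells.

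A single one of these 16 samples stood apart, with the highest level in 23 of the 108 groups of a gene and a class, against 10 for the next sample. It held 794 CPM of Ifngr1 in CD4 T-like cells, where the next sample had 242, and 892 against 450.2 in Treg-like cells. Its Socs3 was 134 against 41.2 CPM in monocyte-like and 119 against 17.9 in APC-like cells, and its Il4ra 415 against 183 CPM in monocyte-like cells. Its Treg-like and APC-like groups were the smallest used of these classes, with 24 and 26 cells, so that their values rest on few UMIs. Without this sample the CD4 T-like range of Ifngr1 was 68.9 to 242 CPM with a median of 108, and the class with the highest median was the same for 9 of 9 genes.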

How the data were processed

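Thymic lobes of C57BL/6N mice were mashed, digested, fixed and stored frozen before split-pool barcoding with the Parse WT or Mini kit, 4 lobes per kit, the Mini kit from separate mice. The authors made the deposited UMI counts, whole numbers per cell and gene, with split-pipe on an mm10 index from Ensembl (versions not given in the sources used here), and combined 9 and 2 sublibraries into a matrix per kit. The 10x libraries of the study were not used here. Samples were taken by their names in the table of cells, and the 4 thymic samples of each kit formed the groups. Before any limit, the deposited cells held 30450786 to 124106974 UMIs per thymic WT sample and 28057164 to 33264104 per Mini sample. Limits of 500 and 25000 UMIs and of 15% mitochondrial UMIs were then set on cells. The 5% of cells per sample with the most artificial-doublet neighbours were left out. Thymic cells were integrated over samples and clustered with Seurat 5.3.0 on R 4.3.3 (3000 features, 30 components, resolution 2). The other samples were clustered without integration, by the Leiden method on a graph of shared neighbours (2000 genes, 40 components, resolution 1.5). Both left out the 9 genes, the pathway list and ribosomal RNA genes. Clusters were named by marker lists, so names may differ from those of the study. Counts outside ribosomal RNA genes were summed per class and sample with at least 20 cells, and tested with edgeR 4.0.16 (TMM, quasi-likelihood test, sample as block, Benjamini-Hochberg over all genes tested), after a check on simulated counts. The classes of a comparison come from the same samples, so that the block pairs them by sample. Alternatives were DESeq2 1.42.0, library size alone, no filter, no block, leaving out each sample, other doublet shares (none and 30%; the study called a larger share of cells doublets than the main setting left out), lower resolution, ribosomal RNA kept and UMIs per cell. For the other samples, leaving out clusters mostly of 1 sample and the sample that stands apart was chosen after seeing the data.

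The text names all 9 genes, from the pathway list up to 4 genes per comparison with the largest fold change called the same way in both kits, and per gene the 3 most alike, and 1 gene this rule picks is not reported here. The members and lists were chosen with earlier results of these data known. Protein sequences were not analysed here. Intervals and limits on single counts cover counting error only.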

Additional observations from a re-analysis of the deposited data

Results flagged for a closer look

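Among 108 groups of a gene, a class and a kit with 4 samples, 5 held a sample apart from the other 3 by Dixon's test, and chance flags about 1 in 20. Il7r in SP-CD8-like cells of the WT kit was 497 CPM in sample 1 and 268 to 306 in the others, and the comparison with SP-CD4-like cells was not called with or without it. Il6ra in DP-S-like cells was 2.24 CPM in WT sample 1, the lowest, against 4.91 to 5.41, on 30 UMIs in all. Il2rg in SP-CD8-like cells of the Mini kit was 172 CPM in T-2-B and 141 to 146 in the others. Socs3 in DP-P-like cells of the Mini kit was 2.43 CPM in T-2-B against 2.03 to 2.08, on 41 UMIs. Socs3 in DP-S-like cells was 2.85 CPM in T-2-A and 0 in the others, which is 1 UMI.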

How the results depend on the processing

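Of 102 comparisons of a gene tested, 63 were called, and 46 of these kept the call and the direction in every alternative run that has a test, while 17 lost it or turned in at least 1. DESeq2 lost 0 of the 63, library size alone 2 (Il2rg and Socs1 in DP-R against DN of the WT kit, adjusted p = 0.12 and 0.083), no filter 5, lower resolution 2, doublets kept 1 and leaving out 30% of cells as doublets 9: in the Mini kit Il2rg in DP-R against DN, Il2rb in DP-S against DP-R and Socs1 in SP-CD4 against DP-S, and in the WT kit Il2rb and Il6ra in DP-P and DP-R against DN, Socs1 in DP-R against DN and Ifngr1 in SP-CD8 against SP-CD4, with adjusted p values of 0.053 to 0.30. A further call, Il6ra of the Mini kit in DP-R against DN, was lost there too and turned from lower to 0.57 higher (adjusted p = 0.78). Counted as UMIs per cell, which has no test, the log2 ratios turned for DP-R against DN in Il2rg (-1.29 Mini, -1.31 WT), Il4ra (-0.86 and -0.95) and Socs1 (-1.25, WT), and for SP-CD4 against DN in Il2rg (-0.18 and -0.32) and Il4ra (-0.059 and -0.23).

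Classes of 1 comparison come from the same samples, so the sample was the block. Without the block 6 of 63 calls were lost: Il2rb (adjusted p = 0.058) and Il4ra (0.052) in DP-S against DP-R and Socs1 (0.052) in SP-CD4 against DP-S of the Mini kit, and in the WT kit Socs1 in DP-P (0.18) and DP-R (0.14) against DN and Ifngr1 in SP-CD8 against SP-CD4 (0.10). The genes called without the block fell from 3092 to 2035 in DP-S against DP-R, from 2469 to 1629 in SP-CD4 against DP-S and from 896 to 489 in SP-CD8 against SP-CD4 of the WT kit, and the members called fell to 2 in DP-S against DP-R of the Mini kit and to 1 in SP-CD8 against SP-CD4 of the WT kit.

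Leaving out each sample in turn gave 2 to 4 members in DP-S against DP-R and 1 to 2 in SP-CD8 against SP-CD4 of the Mini kit, and in the WT kit 3 to 6 and 1 to 2, with 523 to 867 genes called in SP-CD8 against SP-CD4. That comparison of the Mini kit gave 857 genes with lower resolution in place of 455, with 2 members there, with 30% doublets out and with doublets kept, and 3 with no filter. With 30% doublets out, 2987 in place of 4753 genes were called in DP-R against DN of the Mini kit, and 1 member in SP-CD8 against SP-CD4 of the WT kit. At lower resolution the Mini kit had no DP-S-like class, so 2 comparisons could not be made, and in the other samples no Treg-like class was named and 4 of 9 genes kept their top class. The causes were not tested. Low counts limit Il2rb, Il6ra, Socs3 and Cish in DP classes.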

Other observations

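Of the 16 other samples, whose groups the labels do not give, 5 had names that begin with YD and 11 names that begin with CVS. Il2rb in CD4 T-like cells was 45.9, 35.8, 35.7, 54.4 and 39.8 CPM in the first 5. The other 11 held 224, 108, 87.9, 202, 153, 147, 185, 127, 188, 160.1 and 157 CPM. In CD8 T-like cells the first 5 held 148, 172, 129.8, 192 and 168 CPM, and 10 of the others 367, 297.5, 527, 373, 610.4, 401, 549.5, 315, 247 and 335. These ranges did not overlap. Socs3 in CD4 T-like cells also separated, by a narrow margin, at 10.2 to 26.6 CPM in the first 5 and 26.8 to 102 in the other 11. The share of all genes with such a split was not counted, and the split was not tested. The T-like clusters that differ in Il2rb, given above, are filled by different samples, and their part in the split was not tested either. In Treg-like cells, where the Il2rb ranges overlapped, the first 5 held 487, 552.5, 326, 476 and 299 CPM and the others 263, 231, 279, 348, 290.4, 225, 291, 178.5, 293.5, 172 and 152.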
